A study of Mus musculus with 71 samples.

Results

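The genes described here are 10 components of the epithelial tight junction: the claudins Cldn2, Cldn3, Cldn4, Cldn7, Cldn8, Cldn15, Cldn18 and Cldn23, the scaffold gene Tjp1 and the occludin gene Ocln. They were taken by name, from 24475 gene identifiers in each of 3 bulk RNA-seq tables of the mouse intestine. All mice were female C57BL/6, either Btnl2-KO or WT littermates housed with them. The knockout places a LacZ reporter and a selection cassette at the start codon of Btnl2, a butyrophilin-like gene of the gut epithelium, in every cell. Pieces of colon (6 WT, 7 Btnl2-KO) and small intestine (7 WT, 7 Btnl2-KO) carried the label YNG with no age in numbers. Intestinal epithelial cells (IEC) of 7-week-old mice were released with EDTA and collected on a Percoll gradient from duodenum (3 WT, 2 Btnl2-KO), jejunum (3 WT, 3 Btnl2-KO) and ileum (2 WT, 3 Btnl2-KO). γδ intraepithelial lymphocytes (γδ IEL), labelled as 10 weeks old, were sorted as CD45+ TCRβ- TCRγδ+ cells from duodenum (4 WT, 3 Btnl2-KO), jejunum (4 WT, 4 Btnl2-KO) and ileum (4 WT, 3 Btnl2-KO), and each of these libraries pooled 2 mice. No mouse received a treatment.

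Tight junctions seal the space between neighbouring epithelial cells, and claudins are the membrane proteins that set which ions and how much water can pass. Cldn2 and Cldn15 form cation-permeable pores, and Cldn15 serves sodium recycling in the small intestine. Cldn3, Cldn4 and Cldn8 act mainly as sealing claudins, Cldn7 also lies along the lateral membrane, Cldn18 is a claudin of stomach and lung, and Cldn23 is a less studied member found toward the gut surface. Tjp1 encodes ZO-1, which ties the strands to actin, and Ocln encodes occludin.

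In GRCm38, Cldn4 (chr5:134945123-134946934, minus strand, 1 exon), Cldn3 (chr5:134986214-134987476, plus strand, 1 exon) and Cldn15 (chr5:136967869-136975845, plus strand, 6 exons) lie on the same chromosome. A gap of 39279 bp separates Cldn4 from Cldn3. Cldn2 lies at chrX:139800808-139811386, Cldn7 at chr11:69964779-69967886, Cldn8 at chr16:88560826-88563183, Cldn18 at chr9:99690796-99717267, Cldn23 at chr8:35824709-35826559, Tjp1 at chr7:65296165-65527850 and Ocln at chr13:100496504-100552718. Cldn8 and Cldn23 also have 1 exon each, whereas Tjp1 has 28 exons and the longest exonic sequence of the group (7109 bp).

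Cldn2, Cldn4 and Cldn15 are shown with the 250 bases before their transcription start, as the members called lower in colon than in small intestine in Btnl2-KO tissue whose windows held a motif searched. Cldn7 was also called lower there, and neither of its windows held a match. The bases are RefSeq sequence of GRCm38.p6, read 5′ to 3′ on the gene's strand, at chrX:139800558-139800807 (plus), chr5:134946935-134947184 (minus) and chr5:136967619-136967868 (plus). Capitals mark matches, on either strand, to the motifs searched.
Cldn2: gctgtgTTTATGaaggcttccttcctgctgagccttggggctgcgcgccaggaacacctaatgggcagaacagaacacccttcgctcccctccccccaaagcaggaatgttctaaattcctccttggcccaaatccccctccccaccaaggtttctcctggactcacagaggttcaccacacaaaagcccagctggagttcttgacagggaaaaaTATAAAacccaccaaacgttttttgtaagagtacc
Cldn4: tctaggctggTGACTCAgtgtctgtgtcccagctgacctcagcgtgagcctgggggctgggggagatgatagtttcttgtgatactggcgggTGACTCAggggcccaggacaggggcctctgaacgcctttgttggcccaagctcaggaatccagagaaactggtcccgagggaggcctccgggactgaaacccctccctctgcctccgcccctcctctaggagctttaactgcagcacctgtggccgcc
Cldn15: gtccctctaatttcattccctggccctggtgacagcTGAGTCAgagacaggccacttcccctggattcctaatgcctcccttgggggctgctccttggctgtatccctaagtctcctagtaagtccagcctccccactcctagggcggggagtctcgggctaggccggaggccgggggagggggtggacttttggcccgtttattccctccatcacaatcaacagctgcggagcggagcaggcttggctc
Windows were found for 8 of the 10 members, 11 windows in all, and 7 motifs were searched. The Cldn2 window held the TATA box letters TATAAA starting 35 bases before the start, as did 12.4% of 32851 windows of that length. It also held the CDX letters TTTATG, found in 10.8% of windows. The windows of Cldn4 (2 matches) and Cldn15 (1 match) held the AP-1 letters TGANTCA, found in 6.75%. Of the GATA motifs, AGATAA was in a Cldn18 window (9.99% of all windows), and the form TGATAA was in a Tjp1 window (7.94%). No member window held the HNF4 letters CAAAGTCCA (0.384% of windows) or the E-box CACGTG (6.02%). A match is a description of the letters, and none was tested as a site.

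Each tissue library held 13619309 to 21708721 counts, each IEC library 15397757 to 38258472 and each γδ IEL library 13444958 to 30029485. Levels are given as CPM, the usual depth-normalized count unit, with TMM scaling within a table, and a gene was called where the adjusted p of edgeR's quasi-likelihood test was under 0.05 and the fold over 1.5. Btnl2 followed the genotype labels in tissue, at 23.9 to 104 CPM in WT small intestine against 0.669 to 2.46 CPM in Btnl2-KO. It did so in γδ IEL, at 2.47 to 9.78 CPM in WT against 0 to 0.124 CPM in Btnl2-KO, but 2 IEC libraries labelled Btnl2-KO held more of it than the others, duodenal replicate 1 (5.48 CPM) and jejunal replicate 2 (18.8 CPM). In IEC the ileal bile acid carrier Fabp6 went against the segment label in 3 libraries labelled Btnl2-KO. It stood at 221 CPM in duodenal replicate 1 and 467 CPM in jejunal replicate 2, and at 0.24 CPM in ileal replicate 1, beside 580 and 593 CPM in WT ileum. In small intestine tissue, 2 WT libraries (replicates 2 and 3) held 843 and 1638 CPM of Car1, a colonic carbonic anhydrase that stayed at or under 0.606 CPM in the other 12. The proximal factor Gata4 stood at 96.6, 83.5 and 15.1 CPM in Btnl2-KO replicate 1 and WT replicates 5 and 7, and at or under 2.29 CPM in the other 11.

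The comparison of colon with small intestine asked which junction genes differ along the gut. Cldn8 was 3.71 ± 0.317 (SE) higher in colon on the log2 scale in WT mice, the pore-forming Cldn15 was lower by 1.49 and Cldn2 by 0.928, while Cldn3, Cldn23, Tjp1 and Ocln were not called. Of 9 tested members, 1 was higher and 2 were lower, beside 27.6% of 15162 genes tested called (12% higher, 15.6% lower). The same 3 members were called in Btnl2-KO mice, together with Cldn4 and Cldn7, so that 1 was higher and 4 were lower, beside 30.2% of 14798 genes tested (14.4% higher, 15.7% lower). The median over the 9 tested members was −0.25 in WT and −0.35 in Btnl2-KO, and −0.02 and 0.02 over all genes tested.

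Cldn8, a sealing claudin of the distal gut, ranged in WT small intestine from 3.62 CPM over a median of 13.1 to 17.1 CPM, and in WT colon from 107 over 163 to 186 CPM. In Btnl2-KO it ranged from 3.62 over 11 to 14.8 CPM in small intestine and from 135 over 150 to 191 CPM in colon. No colon library came near any small intestine library. The adjusted p of edgeR's quasi-likelihood test was 3.39e-07 in WT and 8.08e-10 in Btnl2-KO, where the difference was 3.90 ± 0.224 (SE).

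Cldn15 ran the other way. Its level went from 188 over 214 to 290 CPM in WT small intestine and from 38 over 68.7 to 154 CPM in WT colon, so the groups did not overlap. In Btnl2-KO the ranges were 205 to 440 CPM (median 251) and 41.9 to 122 CPM (median 78.6), again without overlap. The log2 difference was −1.49 ± 0.261 (SE, adjusted p = 0.000314) in WT and −1.76 ± 0.25 (SE, adjusted p = 2.29e-05) in Btnl2-KO. In WT colon its highest library exceeded its lowest 4.06-fold, the widest range of the 9 tested members there, at 83.3 ± 41.3 CPM (SD, n = 6).

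Cldn2, which forms cation and water pores, stood at 263 ± 98.4 CPM (SD, n = 7) in WT small intestine and 139 ± 21.5 CPM (SD, n = 6) in WT colon. The log2 difference was −0.93 ± 0.23 (SE, adjusted p = 0.00429) in WT and −0.98 ± 0.219 (SE, adjusted p = 0.00139) in Btnl2-KO. The groups overlapped in both genotypes, because the small intestine libraries split. The 3 libraries with Gata4 over 10 CPM held 95.6, 144 and 169 CPM of Cldn2, and of the other 11 all but WT replicate 1 (168 CPM) held 207 to 375 CPM. A setting chosen after seeing the data left out those of the 3 libraries that belonged to the genotype fitted. The log2 difference was then −1.15 in WT and −1.13 in Btnl2-KO.

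Cldn4, a sealing claudin, was the most uneven member in WT small intestine. Its 7 WT libraries held 268, 177, 156, 44.3, 16.3, 18.2 and 14 CPM in replicates 1 to 7, and its Btnl2-KO libraries 59.3 to 191 CPM. Colon libraries held 32.7 to 66.8 CPM in both genotypes, so that 3 WT small intestine libraries lay above and 3 below every colon library. The log2 difference was −1.33 ± 0.215 (SE, adjusted p = 8.13e-05) in Btnl2-KO. It was −1.11 ± 0.645 (SE, adjusted p = 0.176) in WT. Without the Gata4-high WT replicates 5 and 7, a setting chosen after seeing the data, it was called there (−1.52, adjusted p = 0.0298). Those replicates held 16.3 and 14 CPM of Cldn4, its lowest values in WT small intestine. The summed level of 12 epithelial genes was also lowest in the WT small intestine libraries with little Cldn4 (9463, 11690 and 12150 CPM in replicates 7, 5 and 6, beside 14400 to 18220 CPM in the other 4), and its part in the spread of Cldn4 was not tested.

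Cldn7, the most abundant claudin of the list, stood at 687 ± 192 CPM (SD, n = 7) in WT small intestine and 469 ± 26.3 CPM (SD, n = 6) in WT colon. In Btnl2-KO the levels were 866 ± 116 CPM (SD, n = 7) and 486 ± 71.1 CPM (SD, n = 7), and here the groups did not overlap. The difference was −0.84 ± 0.112 (SE, adjusted p = 1.16e-05) in Btnl2-KO, and −0.56 ± 0.171 (SE, adjusted p = 0.0145) in WT, under the 1.5-fold minimum. Without any 1 of WT small intestine replicates 5, 6 and 7 it passed that minimum (−0.63, −0.61 and −0.65). The 12 epithelial genes summed to 9463 to 18224 CPM in WT small intestine and 10847 to 12452 CPM in WT colon, and their part in the difference was not tested. Per 1000 CPM of that sum, Cldn7 stood at 48.6 ± 3.83 CPM (SD, n = 7) in WT small intestine and 40.2 ± 1.95 CPM (SD, n = 6) in WT colon. In bulk tissue, fewer epithelial cells and less RNA per cell cannot be told apart.

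The other members differed less in CPM between the regions. Cldn3, a sealing claudin, stood at 302 ± 66.5 CPM (SD, n = 7) and 256 ± 36.5 CPM (SD, n = 6) in WT small intestine and colon, and Cldn23 at 26 ± 8.81 and 33.1 ± 6.25 CPM (SD). Tjp1 stood at 173 ± 28.3 and 205 ± 21.9 CPM (SD). Ocln stood at 126 ± 35.3 and 135 ± 14.7 CPM (SD) in WT, and at 168 ± 21 and 133 ± 18.9 CPM (SD) in Btnl2-KO, where its log2 difference of −0.35 ± 0.104 (SE, adjusted p = 0.0101) stayed under the 1.5-fold minimum. All of these groups overlapped in CPM. Per 1000 CPM of the epithelial sum, Cldn23 ranged from 1.41 to 2.14 CPM in WT small intestine and 2.21 to 3.74 CPM in WT colon, without overlap. In Btnl2-KO its ranges overlapped (1.61 to 2.125 and 1.91 to 3.83 CPM). On that scale in WT, Tjp1 averaged 12.8 and 17.6 CPM, Ocln 9.02 and 11.6 CPM, and Cldn3 21.7 and 21.9 CPM. These scaled values were not tested.

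**Figure D1:**
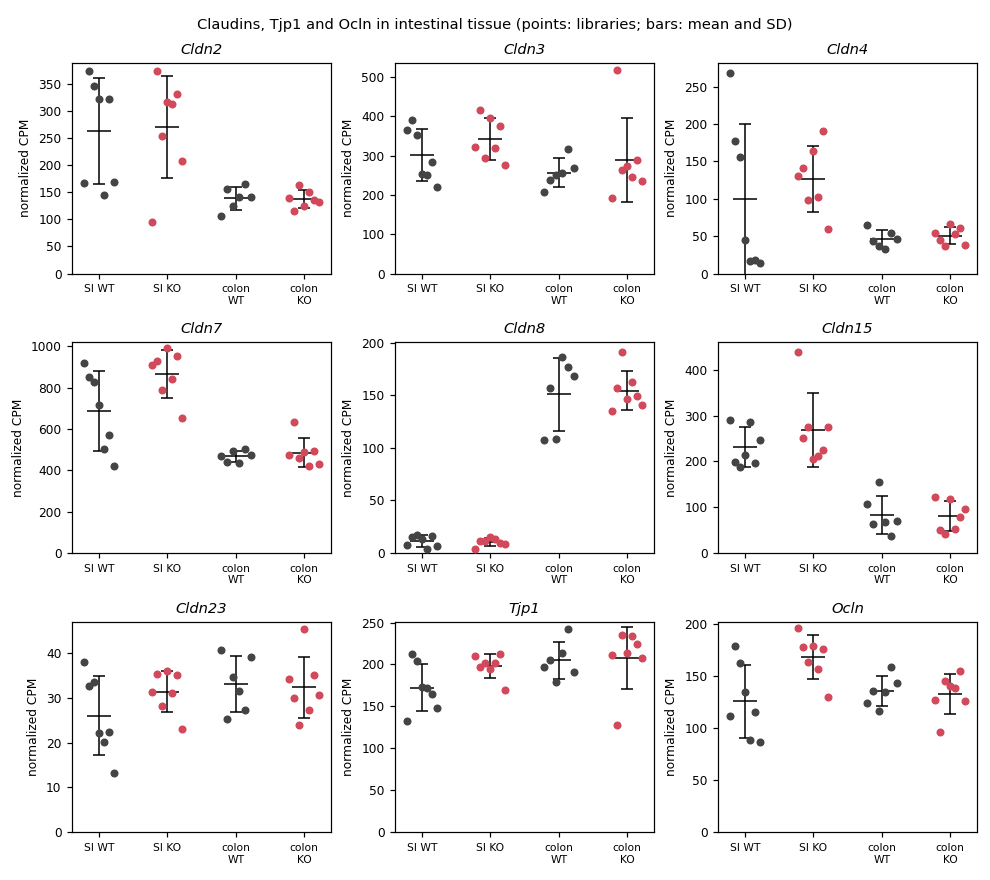
Normalized CPM (vertical axes, from 0) of 9 members in tissue libraries of WT (grey) and Btnl2-KO (red) small intestine (SI) and colon, with the mean and SD as bars. Cldn8 is at 3.62 to 17.1 CPM in small intestine and 107 to 191 CPM in colon, Cldn15 lies lower in colon, and Cldn4 splits the WT small intestine libraries.

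Counted per kb of exonic sequence, so that genes can be compared, Cldn7 led in WT small intestine with 465 CPM per kb, followed by Cldn3 (240), Cldn15 (122), Cldn2 (86.6) and Cldn4 (54.6). Ocln (29.7), Tjp1 (24.3) and Cldn23 (14.1) came next. These are means, and the place of Cldn4 rests on 3 of its 7 libraries: its median was 24.4 CPM per kb, beside medians of 27.4 for Ocln and 24.2 for Tjp1. Cldn8 was last of the detected members at 4.87 CPM per kb. In WT colon Cldn7 (317) and Cldn3 (203) again led, and Cldn8 followed with 64 CPM per kb, ahead of Cldn2 (45.7) and Cldn15 (43.8). Cldn2 and Cldn15 overlapped in colon and differed there by less than their spread over libraries. Cldn18 was near 0 in all 65 libraries, with at most 3 counts in a tissue library and 1 in an IEC or γδ IEL library, and was tested nowhere. A count of 3 in one tissue library corresponded to 0.181 CPM.

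**Figure D2:**
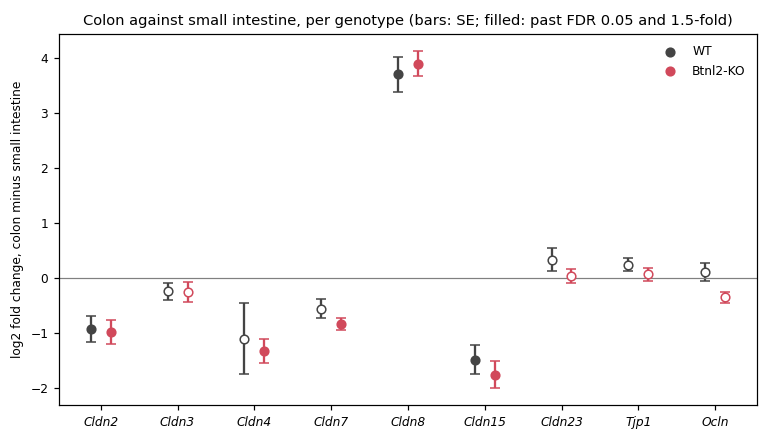
Log2 fold change, colon minus small intestine (vertical axis), with its SE, for 9 members in WT (grey) and Btnl2-KO (red). Filled points were called: Cldn8 is near 3.7 to 3.9 in both genotypes, and Cldn15 and Cldn2 are below 0 in both.

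Among the junction genes around the members, the angulin gene Ildr1, which marks tricellular contacts, followed Cldn8. It stood at 147 CPM in WT colon and 21 CPM in WT small intestine, a log2 difference of 2.80 ± 0.32 (SE). Its relative Lsr (angulin-1) ran the other way, at 131 CPM in colon and 240 CPM in small intestine (−0.88 ± 0.12, SE). Of 32 tight junction pathway genes tested, 4 were higher and 2 lower in WT, and 5 higher and 5 lower in Btnl2-KO. Over all genes tested, 27.6% were called in WT (12% higher, 15.6% lower) and 30.2% in Btnl2-KO (14.4% higher, 15.7% lower). Cgnl1 (paracingulin) was 1.77 higher in WT and 2.02 higher in Btnl2-KO, and Mylk, the myosin light chain kinase that smooth muscle also expresses, was lower by 1.08 and 1.09. The 6 smooth muscle genes summed to 3749 to 9904 CPM in WT small intestine and 4320 to 6139 CPM in WT colon, and their part in Mylk was not tested. Of 23 other claudins, 5 were tested in WT and 4 in Btnl2-KO, and 3 were higher in each. Cldn14 stood at 0.157 CPM in small intestine and 3.37 CPM in colon of WT (log2 4.41 ± 0.42, SE), and Cldn1 at 1.05 and 2.62 CPM (1.30 ± 0.49, SE). In Btnl2-KO the differences were 4.52 for Cldn14 and 1.76 for Cldn1. Cldn14 did not pass the low-count filter when small intestine libraries of the genotypes were compared. It thus entered the region comparisons through its colon libraries. A gene so low in small intestine could be tested only if higher in colon, so the direction of Cldn14 was set by the filter. It is among the 3 other claudins counted as higher. Of 14 adherens junction and desmosome genes, Nectin2 was lower (−0.66) and Cdh1 (E-cadherin, named after its value was seen) higher (0.62) in WT, and 5 were lower in Btnl2-KO, led by Nectin3 (−0.96) and the desmosomal cadherin Dsc2 (−0.82). Median log2 differences were −0.01 for the pathway list and −0.16 for the adherens list in WT, and −0.19 and −0.42 in Btnl2-KO.

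The interaction term, which tests whether the colon to small intestine difference itself differed between genotypes, called no member. edgeR gave 1 member with an unadjusted p under 0.05, Ocln (−0.46 ± 0.196, SE; adjusted p = 0.343), as it did 1998 of 15540 genes, and called 0.0193% of those genes (0.0129% higher, 0.00644% lower). DESeq2 and limma-voom (with sample quality weights, here and throughout) called no member. The calls of Cldn4 and Cldn7 in Btnl2-KO alone are thus not shown to be a difference between genotypes. Without the 2 Car1-high WT libraries, a setting chosen after seeing the data, Ocln was called (−0.72, adjusted p = 0.0409).

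Direct comparison of genotypes asked whether loss of Btnl2 changed the junction genes. In small intestine tissue edgeR called none of 9 members, beside 0.0202% of 14866 genes (0.0135% higher, 0.00673% lower). An unadjusted p under 0.05 was reached by 1 of the 9 members and by 3415 of the 14866 genes, and neither DESeq2 nor limma-voom called a member. Of the members, 8 had higher means in Btnl2-KO and Cldn8 a lower one, with a member median of 0.22 on the log2 scale and −0.03 over all genes. Ocln came nearest, at 168 ± 21 CPM (SD, n = 7) against 126 ± 35.3 CPM (SD, n = 7), or 0.42 ± 0.162 (SE, adjusted p = 0.158). It was called without the 2 Car1-high WT libraries (0.66, adjusted p = 0.0303), and came to 0.22 without the 3 Gata4-high libraries. The 12 epithelial genes summed to 14330 to 18989 CPM in Btnl2-KO and 9463 to 18224 CPM in WT, and their part in these means was not tested. In colon tissue no member was called and none had an unadjusted p under 0.05, beside 0.0269% of 14871 genes called (0.0134% higher, 0.0134% lower) and 616 with an unadjusted p under 0.05, and DESeq2 and limma-voom called no member either. The members' log2 differences there lay between −0.07 (Cldn15) and 0.16 (Cldn3).

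In IEC the segments were compared with each other in WT. The libraries were epithelial by their markers: the 12 epithelial genes summed to 8201 to 12832 CPM, and 12 γδ IEL genes to 26.6 to 429 CPM. Cldn8 and Cldn4 were higher in ileum than in duodenum, and the other 7 tested members were not called. This was 2 of 9 members, beside 6.59% of 13046 genes (4.21% higher, 2.38% lower). Cldn8 read 1.54, 1.48 and 1.13 CPM in duodenum, 2.03, 1.93 and 1.88 CPM in jejunum and 5.54 and 7.29 CPM in ileum. The order duodenum, jejunum, ileum held without overlap, although jejunum was not called against duodenum (0.49 ± 0.245, SE; adjusted p = 0.382). Ileum exceeded duodenum by 2.21 ± 0.259 (SE, adjusted p = 0.00179) and jejunum by 1.72 ± 0.253 (SE, adjusted p = 0.0233).

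Cldn4 read 4.63, 8.61 and 5.14 CPM in duodenum, 9, 9.57 and 10.2 CPM in jejunum and 18.4 and 17.6 CPM in ileum, again in that order without overlap. Ileum exceeded duodenum by 1.56 ± 0.264 (SE, adjusted p = 0.00908). The step from jejunum to ileum was 0.91 ± 0.262 (SE, adjusted p = 0.276) and that from duodenum to jejunum 0.65 ± 0.243 (SE, adjusted p = 0.293), neither called. Of the 9 members, 1 was called between ileum and jejunum (Cldn8; 0.644% of 13046 genes called, 0.437% higher and 0.207% lower) and none between jejunum and duodenum, where 1 had an unadjusted p under 0.05 (Cldn4; 1895 of all genes did, and 0.767% were called, 0.452% higher and 0.314% lower). Leaving out 1 library took the count of all genes called from 860 to between 244 and 930 for ileum against duodenum, lowest without ileal replicate 1, from 84 to between 4 and 76 for ileum against jejunum, lowest again without ileal replicate 1, and from 100 to between 23 and 117 for jejunum against duodenum, lowest without jejunal replicate 3. Leaving out either ileal WT library, with the lone other one assumed to vary like the duodenal group, Cldn4 was no longer called for ileum against duodenum (adjusted p = 0.0925 without replicate 1 and 0.054 without replicate 2), and Cldn8 was. For ileum against jejunum, Cldn8 lost its call without any 1 of the 5 libraries (adjusted p = 0.0692 to 0.126). Cldn4 was called for jejunum against duodenum without duodenal WT replicate 2 (0.97, adjusted p = 0.0425).

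Cldn2 read 329 and 329.6 CPM in WT ileum, above its 202 to 287 CPM in duodenum and 211 to 221 CPM in jejunum, with log2 differences of 0.47 ± 0.193 (SE, adjusted p = 0.222) and 0.61 ± 0.193 (SE, adjusted p = 0.381). Cldn15 stood at 316 ± 35.1 CPM (SD, n = 3) in duodenum, 277 ± 28.7 CPM (SD, n = 3) in jejunum and 253 ± 0.628 CPM (SD, n = 2) in ileum, a descending order that no test called. Cldn3 (142 to 302 CPM over the 8 WT libraries), Cldn7 (367 to 689 CPM), Cldn23 (10.4 to 19.3 CPM) and Ocln (105 to 161 CPM) had no order beyond their spread. Tjp1 ranged from 123 to 179 CPM in 7 WT libraries and was 48.9 CPM in duodenal replicate 2. In that library genes with over 5000 bp of exonic sequence were shifted by −0.69 on the log2 scale relative to those under 1500 bp, compared with the duodenal median, whereas the other WT IEC libraries lay between −0.16 and 0.28. Whether this shift lowered Tjp1 there was not tested.

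Per kb of exonic sequence, Cldn7 led in every WT IEC segment (293 to 354 CPM per kb). Cldn3 followed (165 to 194), then Cldn15 (133 to 166) and Cldn2 (71.1 to 108). Ocln (28.3 to 32.2), Tjp1 (15.2 to 22.2) and Cldn23 (7.74 to 9.33) came next, and Cldn4 and Cldn8 were at most 9.91 and 2.72 CPM per kb. Of the pathway genes, Ildr1 was higher in ileum than in duodenum (14.2 against 3.13 CPM, 2.18 ± 0.24, SE) and than in jejunum (1.47 ± 0.24, SE), and Amotl1, of the angiomotin family, was higher in ileum than in duodenum (1.95 ± 0.33, SE). These made 2 of 28 tested pathway genes for ileum against duodenum and 1 of 28 for ileum against jejunum. Over all genes 6.59% and 0.644% were called in these comparisons. None of the 14 adherens junction and desmosome genes was called. The 7 goblet cell genes also summed higher in WT ileum (16816 to 18163 CPM) than in WT duodenum (8289 to 9715 CPM), and their part in Cldn4 and Cldn8 was not tested.

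**Figure D3:**
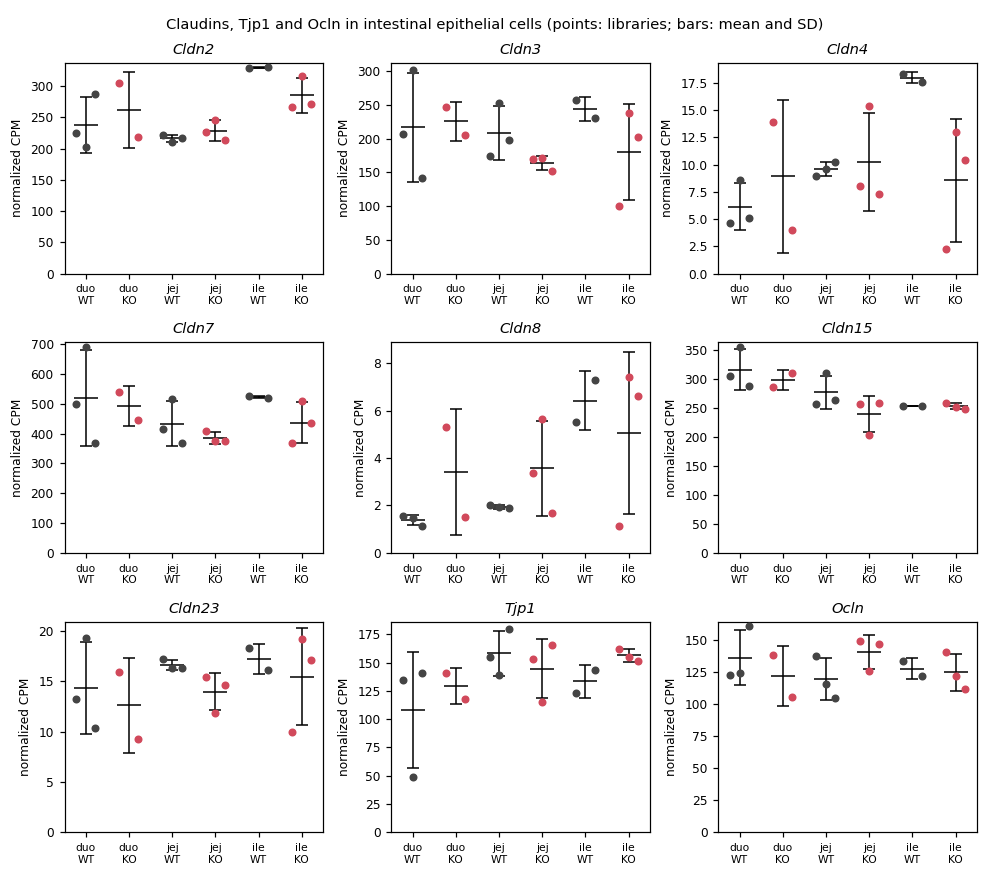
Normalized CPM (vertical axes, from 0) of 9 members in IEC of duodenum (duo), jejunum (jej) and ileum (ile), WT grey and Btnl2-KO red, with the mean and SD as bars. In WT, Cldn8 and Cldn4 ascend from duodenum to ileum, reaching 5.54 to 7.29 CPM and 17.6 to 18.4 CPM.

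Between genotypes in IEC edgeR called no member in any segment. One member, Cldn8 in duodenum, had an unadjusted p under 0.05 (1.30 ± 0.555, SE; adjusted p = 1), and no member did in jejunum or ileum. Without duodenal Btnl2-KO replicate 1, whose Fabp6 went against its label, that difference came to 0.14, and without replicate 2 to 1.94, neither called. Over all genes 0% of 12584, 0% of 12543 and 0.00774% of 12925 were called in duodenum, jejunum and ileum. An unadjusted p under 0.05 was reached by 154 genes in duodenum, 1053 in jejunum and 268 in ileum. DESeq2 and limma-voom each called 1 gene in duodenum and 1 in jejunum, and no member in any segment. In the 3 libraries whose Fabp6 went against the label, Cldn8 and Cldn4 stood apart from the rest of their group. Cldn8 read 5.30 CPM in duodenal Btnl2-KO replicate 1 against 1.53 CPM in replicate 2, and 5.64 CPM in jejunal replicate 2 against 3.37 and 1.67 CPM. In ileum it read 1.14 CPM in replicate 1 against 7.42 and 6.63 CPM. Cldn4 behaved likewise, with 13.9 against 3.97 CPM in duodenum, 15.4 against 8.03 and 7.33 CPM in jejunum, and 2.22 against 13 and 10.5 CPM in ileum. Both genes were thus high in the duodenal and jejunal libraries with high Fabp6 and low in the ileal library with almost none, and in one fit of all IEC libraries without these 3, chosen after seeing the data, still no member was called between genotypes.

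In γδ IEL the same genes were measured. The 12 γδ IEL genes summed to 36230 to 94716 CPM, and the 12 epithelial genes to 597 to 8382 CPM although the cells were sorted on CD45 and TCRγδ. Cldn7 ranged from 6.31 to 539 CPM, Cldn15 from 2.45 to 197 CPM, Cldn3 from 3.52 to 278 CPM and Cldn2 from 0.689 to 93.5 CPM, each lowest in jejunal Btnl2-KO replicate 2, the library with the lowest epithelial sum. Tjp1 stayed at 0.122 to 8.43 CPM, Ocln at 0.842 to 34.1 CPM, and Cldn4 and Cldn8 at most at 2.77 and 3.14 CPM.

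**Figure D4:**
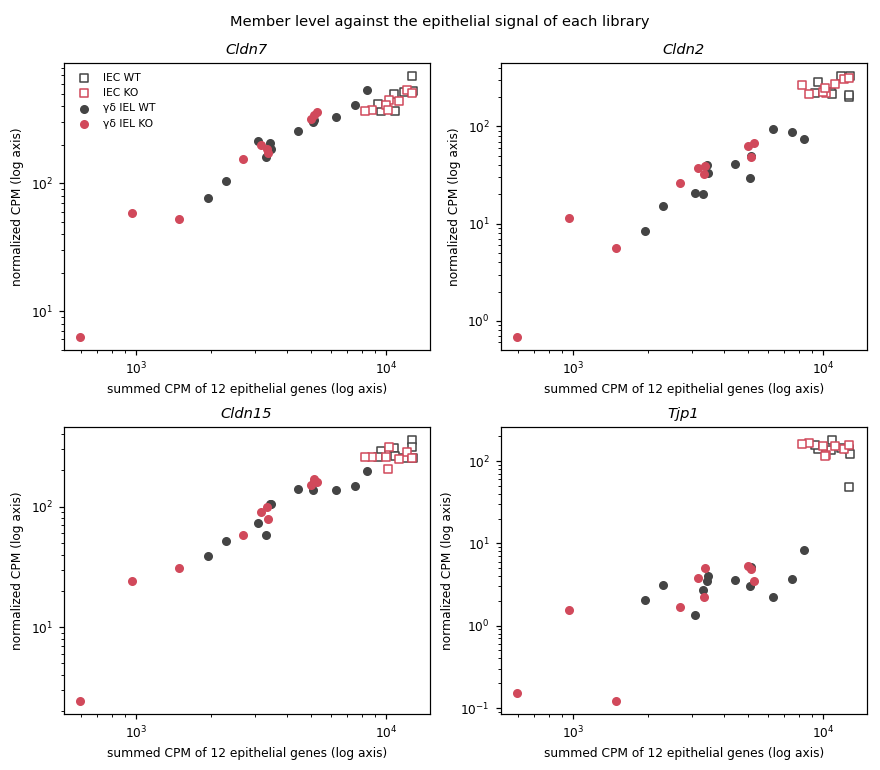
Normalized CPM of Cldn7, Cldn2, Cldn15 and Tjp1 (vertical, log axis) against the summed CPM of 12 epithelial genes (horizontal, log axis) in each γδ IEL library (filled circles) and IEC library (open squares), WT grey and Btnl2-KO red. Over the γδ IEL libraries Cldn7 rises from 6.31 to 539 CPM with the sum, and Tjp1 stays at or under 8.43 CPM.

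Set against IEC of the same segment, the members fell into a wide range. In WT ileum the γδ IEL mean was 126.5% of the IEC mean for Cldn23, 71.8% for Cldn3, 69% for Cldn7 and 53.3% for Cldn15, but 21% for Cldn2, 14.2% for Ocln, 9.99% for Cldn4 and 3.2% for Tjp1. The 12 epithelial genes ran from 7.06% to 510% with a median of 48.6%. Over 20 genes (8 members and the 12 epithelial genes) the log2 ratio and the log2 exonic length had Pearson r of −0.873 in ileum, −0.751 in jejunum and −0.862 in duodenum. This is a description across genes, which share their libraries and are not replicates. The IEC and γδ IEL tables were scaled separately, so the percentages compare levels across tables and no test was made.

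**Figure D5:**
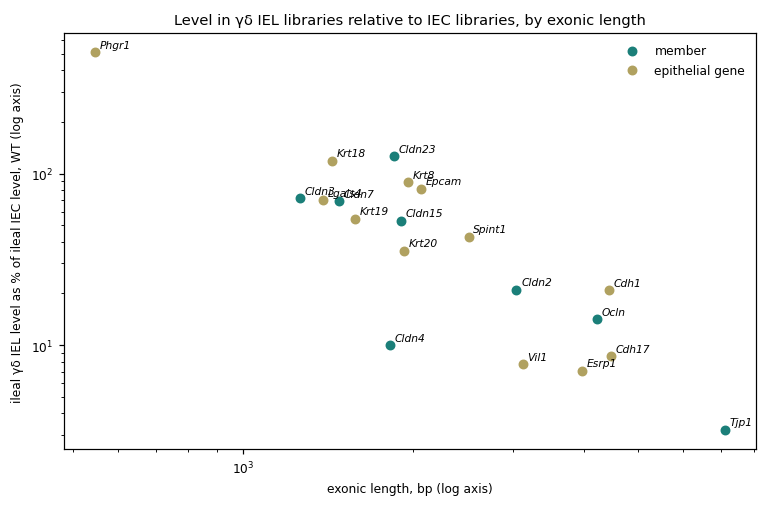
WT ileal γδ IEL level as a percentage of the WT ileal IEC level (vertical, log axis) against exonic length in bp (horizontal, log axis) for 8 members (teal) and 12 epithelial genes (ochre). Cldn3, the shortest member, lies at 71.8%, and Tjp1, the longest, lies at 3.2%.

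The study describes γδ IEL of the 3 segments as taken from one set of mice, so that the segments compared may share animals, and the tests treat their libraries as independent. Between segments in WT γδ IEL, 5 of 9 members were higher in ileum than in jejunum, beside 21.9% of 12899 genes (11.4% higher). They were Cldn2, Cldn3, Cldn4, Cldn7 and Cldn23, with log2 differences of 1.38, 1.22, 1.91, 1.10 and 0.95 and adjusted p of 0.0289 to 0.0491. Cldn7 read 162, 539, 408 and 333 CPM in ileum and 104, 310, 77.4 and 186 CPM in jejunum. Cldn2 read 20.1, 74.6, 88.5 and 93.5 CPM in ileum and 15.2, 49.7, 8.38 and 33.3 CPM in jejunum. All 5 overlapped between the segments. DESeq2 called 5 members and limma-voom 7. Without any 1 of ileal replicates 2 and 3 and jejunal replicates 1, 3 and 4 none of them was called, and without ileal replicate 4 only Cldn3 and Cldn23 were. The epithelial sum was likewise 3300 to 8382 CPM in ileum and 1937 to 5154 CPM in jejunum. Of its genes, Cdh1 (257 against 422 CPM), Cdh17 (137 against 181 CPM) and Vil1 (102.5 against 104 CPM) had lower means in ileum, the rest higher. With the mean of the epithelial genes as a covariate none of the 5 was called, and their log2 differences came to 0.19 to 0.80. Per 1000 CPM of the sum, Cldn7 stood at 49 to 64.4 CPM in ileum and 39.9 to 60.2 CPM in jejunum.

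No member was called between jejunum and duodenum (22.5% of 12899 genes called; at an unadjusted p under 0.05 no member and 5735 genes) or between ileum and duodenum (2.11%, of which 1.03 points were lower; at an unadjusted p under 0.05 4 members and 1545 genes). DESeq2 called no member for the former and 1, Cldn23, for the latter, and limma-voom 2 and none. Without jejunal WT replicate 2 the former gave 2 called members, and without ileal WT replicate 1 Cldn4 and Cldn23 were called for the latter (adjusted p = 0.0486 and 0.0351). Of the other junction genes, the polarity gene Pard6b (0.94), the atypical kinase C gene Prkci (0.93), Cdh1 (0.70) and Cldn12 (0.69) were higher in jejunum than in duodenum, and Afdn (−0.90) and Crb3 (−0.72) lower. Between ileum and jejunum Cgnl1 (3.08, from 0.0816 to 0.685 CPM), Amot (1.20), Dsp (1.11) and Afdn (0.98) were higher, and Pard6b (−1.20), Prkci (−0.81) and Cdh1 (−0.71) lower. At its jejunal level Cgnl1 could pass the low-count filter only through libraries of the other segments. Its direction is therefore not independent of that filter, and it is among the 4 pathway genes counted as higher below. Cdh1 is also among the epithelial genes that were summed. The pathway counts were 3 higher and 1 lower of 27 tested for jejunum against duodenum, none for ileum against duodenum, and 4 higher and 2 lower for ileum against jejunum, and those of the 14 adherens junction and desmosome genes were 1 and 1, none, and 2 and 1. Over all genes 22.5%, 2.11% and 21.9% were called in these segment comparisons, in the same order. In every genotype comparison of the 3 tables edgeR called no gene of these lists.

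Between Btnl2-KO and WT no member was called in any γδ IEL segment by edgeR. In ileum all 9 tested members had lower means in Btnl2-KO, 5 with an unadjusted p under 0.05 (Cldn2, Cldn3, Cldn7, Cldn15 and Cldn23), and the member median was −1.32 on the log2 scale beside 0.06 over all genes. DESeq2 called 1 member (Cldn7) and limma-voom with sample quality weights 6, and edgeR called 0% of 12604 genes, with 1108 at an unadjusted p under 0.05. Cldn7 read 154, 58.8 and 171 CPM in Btnl2-KO ileum against 162, 539, 408 and 333 CPM in WT, and Cldn3 read 91.8, 32.3 and 83.2 CPM against 95.2, 278, 176 and 152 CPM. WT replicate 1 lay within the Btnl2-KO range for Cldn7 and just above it for Cldn3. The epithelial sum was 961 to 3379 CPM in Btnl2-KO ileum and 3300 to 8382 CPM in WT. Per 1000 CPM of it, Cldn7 stood at 50.7 to 61.3 CPM in Btnl2-KO and 49 to 64.4 CPM in WT, and with the epithelial mean as a covariate the differences of these 5 members came to −0.16 to 0.06. In duodenum 7 members could be tested, 1 of them (Cldn2) with an unadjusted p under 0.05 (0.66 ± 0.258, SE; adjusted p = 0.997), and in jejunum 9 and none, and DESeq2 and limma-voom called no member in either segment. Over all genes 0.00789% of 12680 and 0.00794% of 12594 were called there, in each case only Btnl2, and 263 and 805 had an unadjusted p under 0.05.

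Across the 27 tissue libraries the genes most like each member on log2(CPM + 1) were as follows. For Cldn8 they were Acsm3 (Pearson r = 0.988), Hsd11b2 (0.988) and Golm1 (0.986), for Cldn15 Apol10a (0.976) and Chn2 (0.961), and for Cldn7 Cd82 (0.972), Epcam (0.969) and Mall (0.961). For Cldn2 they were Syt2 (0.893), Slc25a48 (0.886) and Nr1h4 (0.879), and for Cldn4 Serpinb6a (0.932), Mtmr11 (0.917) and Itgb6 (0.911). Cldn3 was nearest to 2200002D01Rik (0.861), Fkbp8 (0.856) and Cdc42ep5 (0.85), and Cldn23 to Gtpbp2 (0.86), Sdcbp2 (0.855) and Wsb1 (0.845). Tjp1 was nearest to Tmem131 (0.899), Adgrg7 (0.897) and Aff1 (0.894), and Ocln to Naip2 (0.932), Zfyve1 (0.922) and Nbr1 (0.918).

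After each group's mean was subtracted, members also resembled one another. Cldn2 and Cldn8 moved together within groups (r = 0.898 over 27 libraries), and still did at r = 0.778 without the 3 Gata4-high libraries, although their group levels run opposite ways between colon and small intestine. Cldn8 and Cldn15 moved apart (r = −0.646, and −0.694 without them). Cldn4 moved with Cldn7 (0.854) and Cldn23 (0.81), and Tjp1 with Ocln (0.759), the members with 7109 and 4222 bp of exonic sequence. On this scale the nearest genes were Rnf180 (0.938), Cldn8 and Gcnt1 (0.884) for Cldn2, Cldn2, Slc40a1 (0.89) and Rnf180 (0.882) for Cldn8, and Apol10a (0.914), Homer2 (0.889) and B4galnt1 (0.883) for Cldn15. They were F11r (0.958), Stk25 (0.941) and Epcam (0.937) for Cldn7, Tuft1 (0.94), Gprc5a (0.939) and Bnip5 (0.935) for Cldn4, Grtp1 (0.889), Cdc42ep5 (0.874) and Ubxn6 (0.856) for Cldn3, and Gtpbp2 (0.853), Trpm4 (0.832) and Sdcbp2 (0.823) for Cldn23. They were Spred2 (0.919), Kif13b (0.913) and Fcho2 (0.906) for Tjp1, and Erbb3 (0.931), Arhgap12 (0.92) and Slc35f5 (0.913) for Ocln. These are descriptions over 27 libraries that share their regions and their library depth. In WT small intestine replicate 1, genes over 5000 bp were shifted by −0.56 (log2) relative to those under 1500 bp, compared with its group's median. The same shift was −1.05 in colon Btnl2-KO replicate 2 and between −0.095 and 0.108 in the other tissue libraries. Its part in the correlations within groups, such as that of Tjp1 with Ocln, was not tested.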

How the data were processed

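RNA-seq was analysed in 65 bulk libraries. Per the labels and the study's methods, the authors mapped reads to the mouse genome (GRCm38 in the submitters' processing notes) with ArrayStudio and deposited expected counts per gene, estimated by RSEM from sense-strand exonic reads. The RNA kit is described differently in the labels and the methods, so the kit of each table is not known. Here the expected counts were rounded to whole numbers, 1 column of the γδ IEL table that matched no sample was left out, and 100 gene identifiers with no symbol in the RefSeq table (0.254% to 9.24% of a library's counts) stayed in the library sizes and tests.

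Each comparison was fitted across all genes with edgeR 4.0.16 (R 4.3.3, with TMM, glmQLFit and glmQLFTest). Region, interaction and genotype comparisons were fitted on their own groups. Segment comparisons in IEC and in γδ IEL were fitted on the WT libraries of duodenum, jejunum and ileum together. The segments of a table thus shared the filter, the scaling and the estimate of the spread. A gene was kept if the number of libraries with 10 counts or more reached the size of the smallest group. P-values were adjusted by the Benjamini-Hochberg method, and a call needed an adjusted p under 0.05 and a fold over 1.5, the authors' thresholds for DESeq2. CPM were scaled over each table. No within-group pair of libraries was identical or within sampling noise (lowest chi-square per degree of freedom 5.28). Except for γδ IEL, where the methods give pools of 2 mice, nothing in the labels ties a library to an animal, so p-values measure the spread between these samples. Segments or regions of one mouse may stand on both sides of a comparison, and no test accounts for that. Alternatives were DESeq2 1.42.0, RLE scaling, no low-count filter, filterByExpr, limma-voom with sample quality weights (limma 3.58.1), which changes both the test and the weight of each library, no minimum fold, each library left out, a joint fit of each whole table, and for γδ IEL an epithelial covariate. The scripts were tested on simulated data.

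The members and gene lists were chosen with earlier results of these data known. Named beyond the members, by rule, were in each comparison up to 4 called genes per direction from the other claudins and junction lists, and for each member the 3 genes with the highest Pearson r in tissue, on levels and on deviations from group means. One gene that this rule names is not reported here. The single-cell libraries were not used here. Positions and promoter sequences are from RefSeq GRCm38.p6 and exonic lengths from GENCODE M21. Genes that share reads with close copies cannot be separated beyond what RSEM assigned.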

Additional observations from a re-analysis of the deposited data

Results flagged for a closer look

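Within groups of 4 to 10 libraries, 72 sets of member values on log2(CPM + 1) were screened for a library far from its group by Dixon's criterion, and 8 stood apart. Chance picks out about 1 in 20 such sets. Colon Btnl2-KO replicate 2 accounted for 4 of them: it was the highest library for Cldn3 (518 CPM, next 288 CPM) and Cldn7 (634 CPM, next 495 CPM) and the lowest for Tjp1 (128 CPM, next 208 CPM) and Ocln (96 CPM, next 126 CPM). In the same library genes with over 5000 bp of exonic sequence were shifted by −1.05 on the log2 scale relative to those under 1500 bp, compared with the group's median. Tjp1 (7109 bp) and Ocln (4222 bp) are long and Cldn3 (1259 bp) and Cldn7 (1477 bp) short, and the part of this shift in their values was not tested. Leaving this library out changed no call of these 4 genes.

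In small intestine tissue, Btnl2-KO replicate 1 was the highest library for Cldn15 (440 CPM, next 276 CPM) and is 1 of the 3 with Gata4 over 10 CPM, and Btnl2-KO replicate 7 was the lowest for Tjp1 (170 CPM, next 194 CPM). In ileal γδ IEL, WT replicate 1 was the lowest for Cldn2 (20.1 CPM, next 74.6 CPM) and Ocln (3.88 CPM, next 19.6 CPM), and it also had the lowest epithelial sum of that group (3300 CPM).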

How the results depend on the processing

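No paired analysis was possible because the labels give the groups no shared replicate numbers and tie no library to a mouse, although segments may share mice. Of the log2 differences of single members with an unadjusted p under 0.05, 567 recomputed values kept their direction and side of the threshold, 21 passed it anew, 49 no longer did and 2 changed sign. Those 2 were Cldn2 (0.056) and Cldn15 (0.042) in ileal γδ IEL of Btnl2-KO against WT with the epithelial covariate. Cldn8, Cldn15 and Cldn2 between colon and small intestine kept their calls under every alternative run. The settings that left out libraries by Gata4, Car1 or segment markers were chosen after seeing the data.

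Without the Gata4-high WT libraries (replicates 5 and 7) 5 members were called for colon against small intestine in WT. Without the 2 Car1-high libraries 1 member each was called for the interaction and for Btnl2-KO against WT in small intestine. With limma-voom and sample quality weights together 1 member was called for jejunum against duodenum in IEC, 2 for ileum against jejunum in IEC, 2 for jejunum against duodenum and 7 in place of 5 for ileum against jejunum in γδ IEL and 6 for Btnl2-KO against WT in ileal γδ IEL. With DESeq2 1 member was called for ileum against duodenum and 1 for Btnl2-KO against WT in ileal γδ IEL. In a joint fit of each whole table, 0 members were called for ileum against duodenum and ileum against jejunum in IEC and for ileum against jejunum in γδ IEL, but in IEC 2 and 1 were called in a joint fit without the 3 Btnl2-KO libraries whose segment markers went against the label. With the epithelial covariate 1 member was called for jejunum against duodenum and 0 for ileum against jejunum in γδ IEL. Leaving out each library gave 0 to 1, 1 to 2 and 0 to 0 members for jejunum against duodenum, ileum against duodenum and ileum against jejunum in IEC, and 0 to 2, 0 to 2 and 0 to 5 in γδ IEL. The cause was not tested.

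Counts over all genes also moved. Without a minimum fold 7115 and 7561 genes were called between colon and small intestine in WT and Btnl2-KO, and 4237 between ileum and jejunum in γδ IEL. DESeq2 called 17 for the interaction, 177 and 10 for the genotype in small intestine and colon, 427, 1336 and 286 between IEC segments, 2 for the genotype in ileal IEC, 498 for ileum against duodenum in γδ IEL and 4, 2 and 221 for the genotype in duodenal, jejunal and ileal γδ IEL. Limma-voom with these weights called 9 for the interaction, 51 and 7 for the genotype in small intestine and colon, 209, 1638 and 258 between IEC segments, 2 for the genotype in ileal IEC, and 4293 and 1207 for ileum against jejunum and the ileal genotype in γδ IEL. One fit of a table gave 219 for the genotype in small intestine, 0 in each of the 3 IEC segment comparisons (217, 1384 and 174 without the 3 libraries), 0 for the ileal IEC genotype, and 125, 1436, 2 and 2 for ileum against duodenum, ileum against jejunum and the jejunal and ileal genotype in γδ IEL. The epithelial covariate gave 536 and 1431 for those 2 segment comparisons, no filter 9 for the interaction and 1 for the duodenal IEC genotype, and leaving out the Car1-high libraries 144 for the interaction and 324 for the genotype in small intestine. Leaving out 1 library gave 3 to 7 genes for the interaction and for the genotype in small intestine, 0 to 18, 0 to 1 and 0 to 3 for the genotype in duodenal, jejunal and ileal IEC, 1861 to 3793, 157 to 426 and 1806 to 3336 for jejunum against duodenum, ileum against duodenum and ileum against jejunum in γδ IEL, and 0 to 3, 0 to 0 and 0 to 60 for its genotype in the 3 segments. Cldn4 and Cldn8 in γδ IEL rest on few counts.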
